A study of Mus musculus with 4 samples.

Results

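Transcripts of 9 genes of the Notch pathway were followed in mouse prostate epithelium by droplet single-cell RNA sequencing. They were the receptors Notch1, Notch2 and Notch3, the ligands Jag1, Jag2 and Dll1, and the target genes Hes1, Hey1 and Nrarp, chosen by name. They are 9 of 31053 genes in the count matrices, and all 9 had a row in each of the 4 matrices. Values are unique molecular identifiers (UMIs), which count captured 3′ ends of transcripts, so isoforms of a gene were not separated. Levels are given as CPM, the UMIs of a gene per 1000000 UMIs of the summed cells.

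Notch receptors are single-pass membrane proteins that bind ligands of the Jagged and Delta-like families on a neighbouring cell. Binding leads to cleavage of the receptor by an ADAM protease and then by gamma-secretase, and the freed intracellular domain enters the nucleus and acts with the DNA-binding protein RBPJ and a Mastermind co-activator. Hes1 and Hey1 encode transcriptional repressors switched on in this way, and Nrarp encodes an ankyrin-repeat protein that is induced by the pathway and dampens it. In stratified and glandular epithelia, including the prostate, the pathway is known for its part in the balance between basal and luminal cells.

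The adult cells came from P2-Runx1:RFP mice of the ICR (CD-1) strain, over 8 weeks old, in which a red fluorescent protein (RFP) reports the P2 promoter of Runx1. EPCAM+ cells were sorted as RFP+ or RFP- from each prostate lobe, anterior (AP), ventral (VP) or dorsolateral (DLP), and tagged with sample barcodes, in 3 runs of 1 library each. Runs 1, 2 and 3 pooled 4, 3 and 4 intact mice. Run 2 also held 5 mice castrated more than 4 weeks before, and run 1 held 17 usable cells of castrated mice with their lobes pooled. The RFP+ DLP fraction of intact mice gave cells in run 3 only. A further library held EPCAM+ cells of urogenital sinus explants taken from ICR (CD-1) embryos at E15.5, the organ from which the prostate buds, and cultured with 10 µM dihydrotestosterone. It pooled 8, 10, 7 and 8 explants for days 0, 1, 3 and 6. Every group of adult cells was therefore a pool of mice from 1 run, and every explant day was a single pool.

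Cells assigned to 1 barcode and passing quality limits numbered 824, 2194 and 1673 in runs 1 to 3 and 5198 in the explants, with medians of 9750 to 14784.5 UMIs per cell, and any pair of libraries shared at most 2 cell barcodes. Of 4691 adult cells, 680 were left out as hematopoietic, endothelial, fibroblast or seminal vesicle cells or for few epithelial markers. The other 4011 were split by the summed UMIs of Krt5, Krt14 and Trp63, with 4 per 10000 UMIs or more called basal, into 1987 basal and 2024 luminal cells. No Notch gene took part in that split. The median of the basal index was 29.1 per 10000 in basal and 0 in luminal cells, and 170 cells (4.24%) lay within 2-fold of the limit. A separate basal list (Col17a1, Dst, Itgb4, Lamb3, Lama3 and Krt17) had medians of 13.7 and 0.619 per 10000. Markers of other cell types were low in both classes of intact cells: the summed level of 10 hematopoietic genes was 3.18 to 13.1 CPM, that of the endothelial list 5.66 to 10.8 and that of the fibroblast list 0.901 to 10.1. The hematopoietic and fibroblast levels were higher in basal cells of every run. The part of other cell types in the results below was not tested.

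The genes lie on chromosomes 2, 3, 12, 16 and 17 of the mouse genome (GRCm38, GENCODE vM21), and all are protein coding. Notch1 occupies chr2:26457903-26516663 (minus strand), Jag1 chr2:137081456-137116644 (minus), Nrarp chr2:25180758-25183339 (plus), Notch2 chr3:98013527-98150361 (plus), Hey1 chr3:8663359-8667256 (minus), Jag2 chr12:112907819-112929776 (minus), Hes1 chr16:30064384-30067796 (plus), Dll1 chr17:15367354-15376872 (minus) and Notch3 chr17:32120820-32166852 (minus). Promoter windows from 250 bases before to 50 bases after the start were at hand in RefSeq (GRCm38.p6) for 7 of the 9 genes, in 8 windows, since Dll1 has 2 starts there. The target genes Hes1 and Hey1 had no window. The windows of Jag1, Jag2 and Dll1 are shown because these genes were high together in basal cells, and that of Nrarp because it is a target gene that was also higher there. Each reads 5′ to 3′ on the gene's strand, and capitals mark CACGCG (or its reverse complement) and CACGTG, letters bound by HES and HEY repressors.
Jag1, chr2:137116471-137116770: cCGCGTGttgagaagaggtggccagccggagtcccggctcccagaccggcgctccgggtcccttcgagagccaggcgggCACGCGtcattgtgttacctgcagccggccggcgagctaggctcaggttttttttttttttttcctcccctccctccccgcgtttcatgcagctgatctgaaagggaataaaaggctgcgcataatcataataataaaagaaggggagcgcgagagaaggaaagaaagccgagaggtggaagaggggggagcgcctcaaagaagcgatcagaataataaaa
Jag2, chr12:112929446-112929745: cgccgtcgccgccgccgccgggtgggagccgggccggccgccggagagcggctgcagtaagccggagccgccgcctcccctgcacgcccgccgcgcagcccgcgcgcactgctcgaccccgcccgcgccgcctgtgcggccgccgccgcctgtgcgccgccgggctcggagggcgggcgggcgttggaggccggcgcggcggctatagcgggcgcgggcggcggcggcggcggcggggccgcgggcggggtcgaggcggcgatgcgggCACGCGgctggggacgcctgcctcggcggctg
Dll1, chr17:15376883-15377182: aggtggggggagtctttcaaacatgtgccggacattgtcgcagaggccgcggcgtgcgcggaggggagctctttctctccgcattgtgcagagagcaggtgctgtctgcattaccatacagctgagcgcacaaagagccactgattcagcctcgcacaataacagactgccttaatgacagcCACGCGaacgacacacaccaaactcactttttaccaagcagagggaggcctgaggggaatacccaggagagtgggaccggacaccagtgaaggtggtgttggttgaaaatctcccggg
Nrarp, chr2:25180508-25180807: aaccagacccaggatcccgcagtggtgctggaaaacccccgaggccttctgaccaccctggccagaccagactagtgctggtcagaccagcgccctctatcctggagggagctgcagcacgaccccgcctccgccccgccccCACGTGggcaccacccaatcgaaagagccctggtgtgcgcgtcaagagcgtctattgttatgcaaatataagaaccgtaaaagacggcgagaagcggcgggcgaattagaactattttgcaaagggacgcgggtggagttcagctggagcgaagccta

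The letters CACGCG were present on either strand in 4 of the 8 windows, those of Jag1, Jag2, Notch2 and the Dll1 start shown, against 9.27% of all 32851 RefSeq promoter windows. In Jag1 they occurred at 2 places, and in Jag2 at a single place after the start. The letters CACGTG, which read the same on both strands, were in the Nrarp window alone, against 7.15% of all windows. The RBPJ letters TGGGAA, and the longer GTGGGAA that contains them, were in none of the 8 windows, against 25.6% and 6.38% of all windows. Nrarp was the only target gene among these windows, and Hes1 and Hey1 were not searched. A match is a description of these letters and not a bound site.

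Basal and luminal cells of intact adults differed most in the ligands. Jag2, Dll1 and Jag1 were all far higher in basal cells in each run, while Notch3 was higher in luminal cells. Notch1 and Nrarp were moderately higher in basal cells. These sums pool all lobes and both RFP gates in unequal shares. In run 3, VP RFP+ cells gave 7038655 of 15540152 luminal UMIs and 319231 of 10574083 basal UMIs. The part of this mix in the differences was not tested. Of the 9 genes, 5 passed as higher in basal cells and 1 as lower (edgeR quasi-likelihood test over 3 against 3 run sums, Benjamini-Hochberg adjusted over 11936 genes), and over all genes tested 22.2% were called higher and 21.1% lower in basal cells.

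Jag2, a Jagged ligand, measured 107, 80.7 and 70.4 scaled CPM in basal cells of runs 1, 2 and 3, against 1.31, 2.11 and 3.00 in luminal cells (TMM-scaled library sizes). The basal and luminal runs did not overlap, and the log2 fold change was 5.31 ± 0.32 (SE, adjusted p = 7.49e-05). Dll1, a Delta-like ligand, measured 18.9, 41.2 and 32.2 scaled CPM in basal cells and 0.874, 0.802 and 1.54 in luminal cells, a log2 fold change of 4.83 ± 0.39 (SE, adjusted p = 0.000183). Its basal level varied more between runs than that of Jag2, with run 1 lowest. Jag1, the other Jagged ligand, measured 19.2, 26.9 and 23.1 scaled CPM in basal and 1.42, 1.68 and 2.18 in luminal cells, a log2 fold change of 3.70 ± 0.24 (SE, adjusted p = 9.60e-05). These 3 ligand calls held in each alternative that was run, but the sizes did not. With only cells under 7500 UMIs the log2 fold changes were 2.86 for Jag2, 2.76 for Dll1 and 2.47 for Jag1, and with the second basal list 3.92, 3.96 and 3.105.

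The ligands were also seen in more basal than luminal cells at equal depth. With each cell thinned to 3000 UMIs, Jag2 was detected in 38.3%, 26.1% and 20.1% of basal cells in runs 1 to 3 and in 0.570%, 0.722% and 1.91% of luminal cells. The unthinned shares were 79.8%, 58.3% and 49.5% of basal cells, at median depths of 8914 to 11770 UMIs, and 2.79%, 4.42% and 4.43% of luminal cells, at 16180 to 26950. Among intact hematopoietic cells of run 2, given for comparison, 10 of 223 thinned cells (4.48%, 95% exact binomial interval 2.17 to 8.09%) and 10.4% of unthinned cells at a median of 6471 UMIs held a Jag2 UMI. The luminal shares were below the hematopoietic shares, whereas the basal shares were above them. Since luminal cells fell below it at equal depth, the hematopoietic share cannot serve as a level of free RNA common to all cells. It comes from run 2 alone, and whether hematopoietic cells make Jag2 themselves was not tested. The part of free RNA in the luminal signal was not tested either. Thinning left out 5 to 9 basal and 8 to 19 luminal cells per run and 27 hematopoietic cells of run 2.

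Among the receptors, Notch3 measured 3.39, 3.57 and 3.36 scaled CPM in luminal and 0.313, 0.774 and 0.174 in basal cells of runs 1 to 3. The runs did not overlap, and the log2 fold change of basal over luminal was -3.19 ± 0.48 (SE, adjusted p = 0.00187). These levels rest on 31 to 49 UMIs per run in luminal cells and 2 to 4 in basal cells, and the log2 fold change was -1.61 with Krt15 kept in the basal index. Notch1 measured 37.4, 41.6 and 38.4 scaled CPM in basal and 32.5, 16.99 and 21.1 in luminal cells, a log2 fold change of 0.74 ± 0.24 (SE, adjusted p = 0.0421). The basal runs lay above the luminal runs, but the call was lost without run 2 (adjusted p = 0.257) and without run 3 (adjusted p = 0.222), and also with cells thinned, with the deepest 6% of cells left out or with cells under 7500 UMIs only. Notch2 measured 13.8, 8.90 and 8.71 in basal and 9.39, 4.30 and 6.72 in luminal cells on the same scale, and these ranges overlapped. Its log2 fold change of 0.63 ± 0.33 (SE) did not pass (adjusted p = 0.164), but did with the run as a block (adjusted p = 0.0339).

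Of the target genes, Nrarp measured 4.38, 6.00 and 8.19 scaled CPM in basal and 2.40, 1.75 and 2.72 in luminal cells of runs 1 to 3. The groups did not overlap, with a log2 fold change of 1.45 ± 0.33 (SE, adjusted p = 0.00987). Its call was lost without run 2 (adjusted p = 0.101) and without run 3 (adjusted p = 0.0805). Hes1 was present at 163, 217 and 266 scaled CPM in basal and 107, 115 and 194 in luminal cells, ranges that overlapped. Its log2 fold change of 0.63 ± 0.28 (SE) did not pass (adjusted p = 0.110), whereas with the run as a block it was 0.66 ± 0.12 (SE, adjusted p = 0.00482), basal cells being higher in 3 of 3 runs. Hey1 was near the limit of detection in both classes, with 5 to 8 UMIs per run in basal and 5 to 14 in luminal cells, and did not pass (log2 fold change 0.22 ± 0.67 SE, adjusted p = 0.816).

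**Figure D1:**
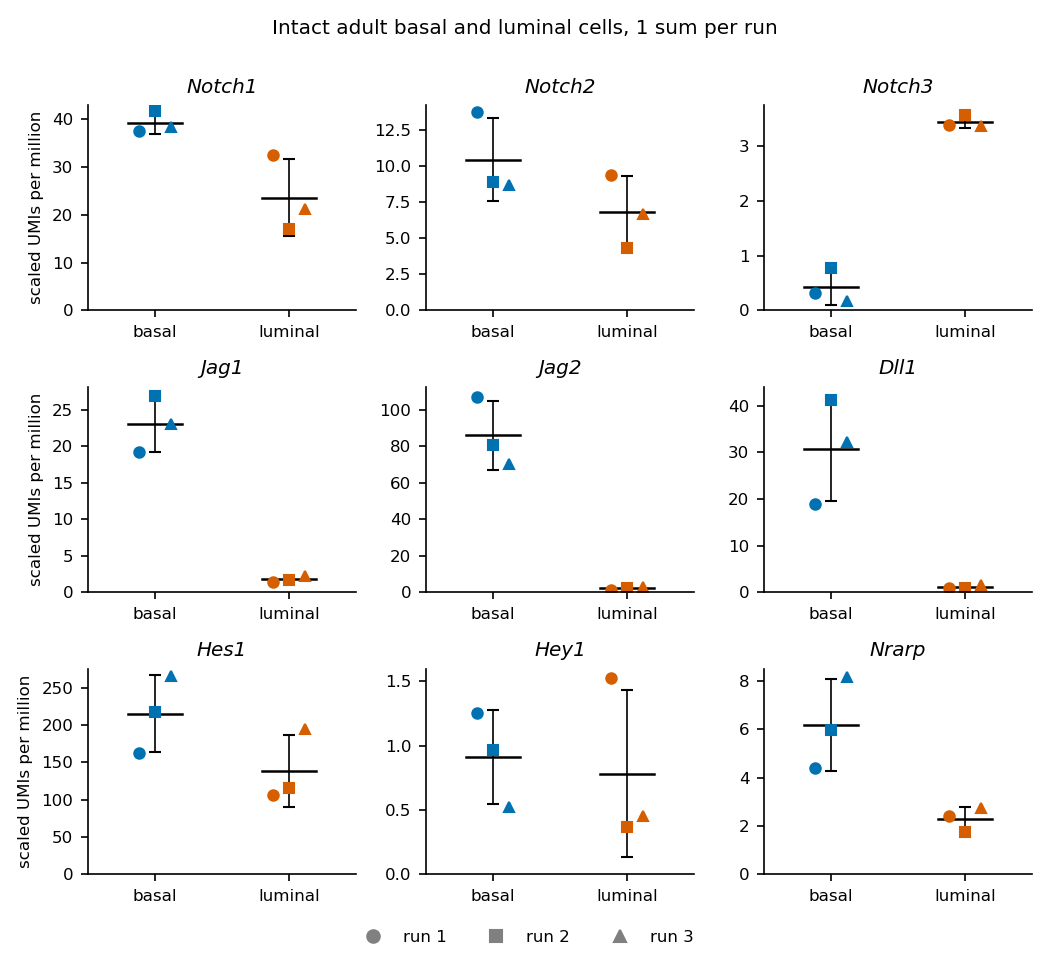
Scaled CPM (vertical axis, from 0, a separate scale per gene) of the 9 genes in intact basal and luminal cells. Each marker is the sum of 1 run, lines are means and bars SD over 3 runs. The 3 ligands sit near 0 in luminal cells and far above it in basal cells, and Notch3 shows the opposite order.

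The same comparison was made within each run, lobe and RFP gate that held at least 10 cells of both classes, which gave 15 pairs. Jag1, Jag2 and Dll1 had higher CPM in basal cells in 15 of 15 pairs. Jag2 ranged from 59.3 to 158 in basal and from 0.284 to 6.68 in luminal cells, with medians of 87.7 and 1.90. Notch1 was higher in basal cells in 13, Notch2 in 12 and Hes1 and Nrarp in 14 of 15 pairs, while Notch3 was higher in luminal cells in 12 and equal in 2. The pairs with Notch1, Notch2 or Hes1 higher in luminal cells were all AP RFP+ pairs. For Notch2 they were those of runs 1, 2 and 3, with nearly level values in run 1. For Notch1 they were those of runs 1 and 3, and for Hes1 that of run 3. In the AP RFP+ gate, basal cells thus did not carry more Notch2 in any run, and more Notch1 in run 2 only. Pairs from a run share its library and mice, and the counts are a description.

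Of 45 further genes of the pathway, 31 could be tested between basal and luminal cells. Of these 8 passed as higher in basal cells and 7 as lower, shares near the 22.2% and 21.1% of all genes, with a median log2 fold change of 0.20 against 0.01 over all genes. Higher in basal cells were Lfng, a Fringe glycosyltransferase that modifies receptors (log2 fold change 2.41 ± 0.31 SE, adjusted p = 0.000955), Dlk2, a non-canonical Delta-like protein (6.80 ± 0.57 SE, adjusted p = 0.000206), and Maml2, a Mastermind co-activator (2.33 ± 0.26 SE, adjusted p = 0.000546). Poglut1, Dtx3, Fbxw7 and Numbl were also higher. Lower in basal cells were 3 parts of gamma-secretase, namely Psen2 (-1.63 ± 0.17 SE, adjusted p = 0.000425), Ncstn and Psenen, together with Adam10, Pofut1, Kat2b and Hes6.

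Luminal cells of intact mice were then compared between RFP gates and lobes, 1 sum per run, in a single fit with a shared spread. In the AP, luminal RFP+ cells carried more of all 3 receptors and of the targets Hes1 and Nrarp than luminal RFP- cells. Of the 9 genes, 5 passed as higher and none as lower, 7 could be tested, and over 10562 genes 12.6% were called higher and 10.7% lower in RFP+ cells. Jag1 and Hey1 did not pass the filter on low counts in the luminal sums.

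Notch1 measured 40.8, 34.6 and 37.3 scaled CPM in luminal AP RFP+ cells of runs 1 to 3 and 16.4, 13.8 and 19.9 in RFP- cells, without overlap (log2 fold change 1.23 ± 0.22 SE, adjusted p = 0.000904). Notch2 measured 11.3, 9.12 and 10.3 against 4.20, 1.69 and 2.09 on that scale (log2 fold change 1.98 ± 0.43 SE, adjusted p = 0.00318). Notch3 measured 3.96, 4.80 and 5.71 against 0, 1.45 and 0 (log2 fold change 2.55 ± 0.66 SE, adjusted p = 0.0107). Without run 2 both remaining RFP- sums of Notch3 are at 0, and the fitted log2 fold change of 6.38 is then no measure of size. All 3 receptors were thus higher in RFP+ cells in 3 of 3 runs, and Notch2 and Notch3 rest on few UMIs in RFP- cells.

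Hes1 in luminal AP cells measured 107, 147 and 282 scaled CPM in RFP+ and 46.7, 89.5 and 81.6 in RFP- cells, a log2 fold change of 1.30 ± 0.34 (SE, adjusted p = 0.0109). Nrarp measured 3.02, 6.72 and 5.71 in RFP+ and 0, 0.484 and 1.05 in RFP- cells on that scale (log2 fold change 3.42 ± 0.82 SE, adjusted p = 0.00644). Without run 2, the calls of Notch2 (adjusted p = 0.0615), Hes1 (0.0634) and Nrarp (adjusted p = 0.156) were lost. With the second basal list Nrarp was lost too (log2 fold change 1.81, adjusted p = 0.125). Notch3 was lost without run 1 (adjusted p = 0.0772) or run 3 (adjusted p = 0.0654), and Hes1 without run 3 (adjusted p = 0.0961). Notch1 was lost with cells thinned to 3000 UMIs (adjusted p = 0.0675), and Hes1 with cells under 7500 UMIs only (adjusted p = 0.384). Jag2 (log2 fold change 0.23 ± 0.71 SE, adjusted p = 0.875) and Dll1 (0.33 ± 1.14 SE, adjusted p = 0.889) were at levels of 0 to 5.23 scaled CPM in these populations, and neither passed. Of 29 further pathway genes tested, Maml2, Adam17 and Dtx4 were higher in RFP+ cells and Mib1 lower.

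Between lobes, luminal Notch1 was compared first. Among RFP+ cells it was 10.7, 8.72 and 5.44 scaled CPM in the VP of runs 1 to 3, all below the AP values above (log2 fold change of AP over VP 2.23 ± 0.22 SE, adjusted p = 8.62e-06). Median depths in run 1 were 12800 UMIs in the AP and 55910 in the VP. The TMM factors were 1.68, 1.24 and 1.39 in the AP and 0.711, 0.686 and 0.629 in the VP. Scaling thus narrowed the difference, which in run 1 was 68.2 against 7.59 on plain CPM. Notch2 (1.28 ± 0.37 SE, adjusted p = 0.0170) and Nrarp (2.15 ± 0.63 SE, adjusted p = 0.0204) were also higher in the AP, and both calls were lost without run 2 or run 3, with adjusted p from 0.1495 to 0.293. Hes1 did not pass (log2 fold change 0.63 ± 0.33 SE, adjusted p = 0.178), but did with the run as a block (adjusted p = 0.0483). Notch3 (0.63 ± 0.50 SE, adjusted p = 0.389), Jag2 (adjusted p = 0.291) and Dll1 (adjusted p = 0.477) did not pass. So 3 of 9 genes were higher in AP RFP+ cells and none lower, beside 14.5% of all genes higher and 10.9% lower, and of 29 further pathway genes 7 were higher, among them Adam10 and Adam17, which cut the receptor, and 2 lower. The study found its proximal luminal cluster mainly among AP RFP+ cells, with few from the VP. Lobe and type of luminal cell can therefore not be told apart in this comparison.

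Among luminal RFP- cells, Notch1 was 16.7 ± 3.1 scaled CPM in the AP, 27.8 ± 4.9 in the DLP and 7.07 ± 0.50 in the VP (SD, n = 3 runs each). The AP values lay above those of the VP in every run (log2 fold change 1.15 ± 0.31 SE, adjusted p = 0.0198), a call that was lost without run 1 (adjusted p = 0.0889), run 2 (adjusted p = 0.153) or run 3 (adjusted p = 0.102) and with DESeq2 (adjusted p = 0.0549). Notch3 went the other way, with 0, 1.45 and 0 in the AP and 4.72, 3.53 and 5.24 in the VP (log2 fold change of AP over VP -2.39 ± 0.78 SE, adjusted p = 0.0501). It did not pass, but did with the run as a block (adjusted p = 0.0444) and with DESeq2 (adjusted p = 0.0411). Beside this single call of 9 genes, 7.55% of all genes were higher and 7.11% lower in the AP. Of 29 further pathway genes 3 were higher in the AP and 1, Dtx4, was lower. The TMM factors of these RFP- sums were 1.45, 1.22 and 1.28 in the AP and 0.766, 0.690 and 0.601 in the VP.

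Between AP and DLP luminal RFP- cells none of the 9 genes passed in the edgeR test, beside 0.473% of all genes called higher and 0.568% lower in the AP, and none passed with DESeq2. Notch1 was the 1 gene of the 9 past 0.05 before adjustment (log2 fold change -0.79 ± 0.24 SE, adjusted p = 0.152 with edgeR). It was higher in the DLP in 3 of 3 runs, at 28.9, 22.5 and 32.1 scaled CPM. The single DLP RFP+ luminal sum, from run 3, held 11.0 for Notch1, 6.77 for Notch2, 138 for Hes1 and 4.65 for Nrarp on that scale. It has no replicate, and its values are not compared.

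Krt4 and Psca are markers of the proximal ducts. A division by these markers took intact luminal cells of all lobes and both RFP gates together. Lobe and gate were not held apart, so it gives no difference within the AP RFP+ gate. When intact luminal cells were divided at 4 summed Krt4 and Psca UMIs per 10000, a limit chosen after the data were seen, Notch1 measured 67.8, 54.7 and 47.1 CPM (plain library totals) in cells above it in runs 1 to 3 and 16.2, 8.77 and 11.6 in the others. Notch2 measured 21.2, 17.2 and 17.5 against 3.71, 1.93 and 3.42, and Notch3 7.395, 7.25 and 8.74 against 1.49, 2.22 and 1.71. Nrarp measured 4.82, 9.89 and 10.1 against 1.30, 0.526 and 1.07. For Hes1 the values were 187, 270 and 467 against 73.0, 68.6 and 103. The cells above the limit numbered 193, 98 and 127, and no test was made of this division. Luminal AP RFP+ cells numbered 197, 99 and 152 in the same runs. In run 1 the cells above the limit held 211 Notch1 and 582 Hes1 UMIs, and the AP RFP+ cells 216 and 567. The overlap of these sets was not counted, so the division is not a view apart from the RFP comparison. Median depths were 12800, 10040 and 10520 UMIs above the limit and 23640, 31560 and 25620 below it. Plain CPM is not scaled for a shift of all genes between such groups.

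Basal cells were tested between lobes for AP and VP in the RFP+ gate. There, none of the 7 genes that could be tested passed between AP and VP in the edgeR test, and none with DESeq2, beside 0.112% of all genes higher and 0.369% lower in the AP. Dll1 was the 1 gene of these past 0.05 before adjustment (log2 fold change -0.96 ± 0.44 SE, adjusted p = 0.605), at 23.4, 51.6 and 32.4 scaled CPM in the AP and 10.2, 85.2 and 101 in the VP, and the VP values spanned those of the AP. Jag2 measured 135, 93.5 and 92.4 in the AP and 129, 127 and 101 in the VP (log2 fold change -0.15 ± 0.25 SE, adjusted p = 0.991). Notch1, at 48.5 ± 6.5 in the AP and 48.7 ± 13.9 in the VP (SD, n = 3), differed by less than the spread between runs (log2 fold change -0.07 ± 0.24 SE). Notch2 (0.92 ± 0.46 SE, adjusted p = 0.654), Jag1 (-0.54 ± 0.30 SE, adjusted p = 0.747), Hes1 (0.05 ± 0.26 SE) and Nrarp (0.68 ± 0.78 SE) did not pass either. None of 28 further pathway genes passed. Basal cells of the DLP and of the RFP- gate were not tested. In RFP- basal cells Hes1 measured 316, 289 and 280 scaled CPM in the AP, DLP and VP of run 2 and 210, 381 and 405 in run 3, so that its order differed between these runs.

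The genes whose levels most resembled those of each member were found by Pearson correlation of log-scaled levels over 31 intact sums, with 4827 candidate genes. For Jag2 they were Adgrb1, Col18a1 and 1600014C10Rik (each r = 0.99), for Jag1 Ptprs, Cldn1 (each r = 0.97) and Lamb3 (r = 0.96), and for Dll1 Tenm2, Pltp and Sparc (each r = 0.95). For Notch1 they were Scaf11, Arhgap5 (each r = 0.96) and Nfia (r = 0.95), and for Notch2 Tacc1 (r = 0.89). Notch3 was likest to Ctsh (r = 0.82) and Nrarp to Gadd45b (r = 0.84), then Gm26669 and Runx1 (each r = 0.83), the last being the gene whose P2 promoter the sorted reporter follows. Hes1 was likest to Nmd3 (r = 0.92) and Hey1, at its low counts, to Ube2j2 (r = 0.69). The sums share runs, libraries and the contrast of basal with luminal cells, so these values are descriptive.

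Castrated and intact cells were compared within run 2, in the 6 populations that held at least 10 cells of both. Each side is 1 pool of mice, so there is no test, treatment and pool cannot be told apart, and intervals cover counting error only. Hes1 was higher in castrated cells in 5 of the 6 populations. In luminal AP RFP+ cells it measured 328 CPM in castrated and 182 in intact cells, a ratio of 1.80 (95% interval 1.59 to 2.05). In luminal AP RFP- cells the levels were 161 and 109 (ratio 1.48, 1.22 to 1.79), in basal AP RFP+ cells 402 and 255 (1.58, 1.37 to 1.81) and in basal VP RFP+ cells 321 and 170 (1.88, 1.46 to 2.42). In luminal VP RFP+ cells they were 208 and 59.2 (3.51, 3.1 to 3.97). Luminal DLP RFP- cells ran the other way, at 93.8 and 126 from 48 and 181 UMIs (0.742, 0.528 to 1.02), with an interval that spanned 1 and only 24 castrated cells. In run 2 the summed hematopoietic markers were 13.0 CPM in castrated and 4.57 in intact luminal cells and the fibroblast markers 3.84 and 1.18. In basal cells they were 15.02 and 13.07, and 7.07 and 10.1. Their part in the Hes1 levels was not tested.

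The last ratio has to be set against a shift of all genes. In luminal VP RFP+ cells the median ratio over all genes was 1.84, and TMM scaling moved ratios by 1.89, against 0.858 to 1.05 in the other 5 populations. On the TMM-scaled library sizes the Hes1 ratios were 1.71, 1.59, 1.86, 1.84 and 2.06 in luminal AP RFP+, luminal AP RFP-, luminal VP RFP+, basal AP RFP+ and basal VP RFP+ cells, and 0.816 in luminal DLP RFP- cells. The intervals of the first 5 lay above 1 on both scales.

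In luminal VP RFP+ cells 5 of the 9 genes were at least 2-fold higher on plain CPM (Notch1, Notch2, Jag1, Hes1 and Nrarp) and none lower, beside 42% of all genes higher and 4.88% lower. With TMM scaling only Jag1 was past 2-fold, at 5.88 against 0.759 CPM, from 14 and 7 UMIs (ratio 7.74, 2.92 to 22.7, and 4.09 when scaled). Notch1 measured 20.1 and 5.96 CPM there, a scaled ratio of 1.79 (1.19 to 2.68). In luminal AP RFP+ cells Notch1 was close in castrated and intact cells, at 45.2 and 42.7 CPM (ratio 1.06, 0.794 to 1.42). Nrarp was the single gene past 2-fold, and lower, at 3.97 and 8.29 from 13 and 14 UMIs (ratio 0.478, 0.207 to 1.10), beside 11.8% of all genes higher and 9.38% lower.

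In luminal AP RFP- cells Notch2 (4 and 7 UMIs) and Notch3 (4 and 6 UMIs) were past 2-fold and higher, with intervals that spanned 1, beside 7.32% of all genes higher and 16.5% lower. Notch1 measured 27.0 and 16.8 CPM there (ratio 1.61, 0.971 to 2.60, and 1.73, 1.05 to 2.80, when TMM-scaled). In luminal DLP RFP- cells none of the 9 genes was past 2-fold, beside 4.74% of all genes higher and 17.3% lower, and Notch1 measured 17.6 and 23.7 CPM (ratio 0.740, 0.312 to 1.58). Castrated basal cells carried the ligands as well. In basal AP RFP+ cells Jag2 measured 66.1 and 92.9 CPM in castrated and intact cells (ratio 0.711, 0.536 to 0.940, and 0.829, 0.625 to 1.10, when TMM-scaled) and Dll1 41.1 and 51.3 (0.802, 0.553 to 1.16). Jag1 measured 35.3 and 24.5 there (1.44, 0.904 to 2.31, and 1.68, 1.05 to 2.69, when TMM-scaled). In basal VP RFP+ cells Jag2 measured 75.6 and 126 (0.598, 0.382 to 0.912, and 0.654, 0.417 to 0.997, when TMM-scaled), Dll1 80.8 and 85.1 and Jag1 31.3 and 47.5. On plain CPM none of the 9 genes was past 2-fold in either basal population, beside 4.41% of all genes higher and 12.4% lower in the AP and 5.41% and 17.4% in the VP, but Hes1 in the VP was past it when TMM-scaled, as given above. Notch3 had 6 UMIs in castrated and 0 in intact basal AP RFP+ cells.

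**Figure D2:**
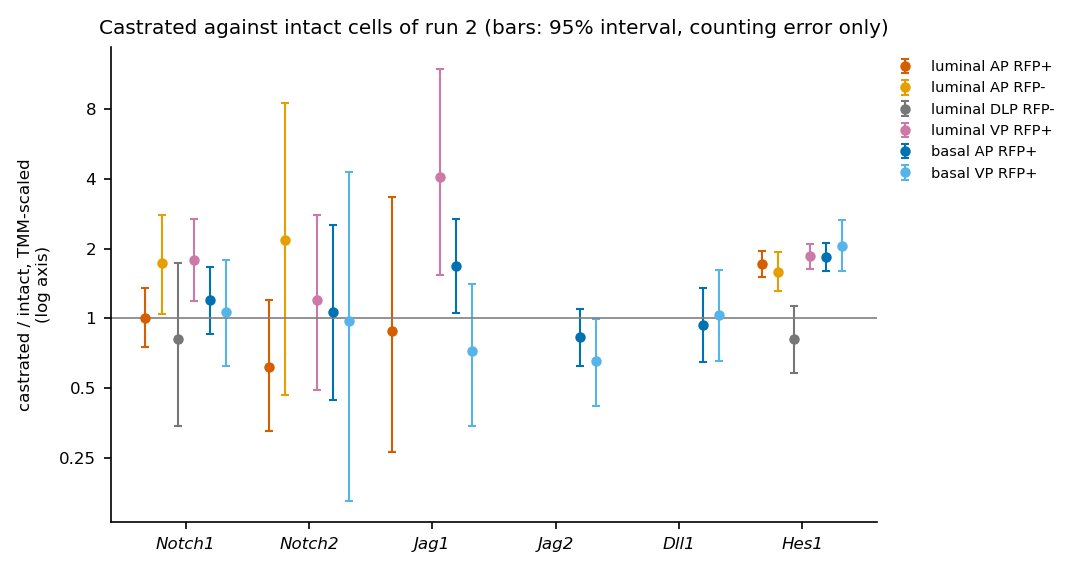
Ratio of castrated to intact cells of run 2 on TMM-scaled library sizes (vertical log axis) for 6 genes in 6 populations, with 95% intervals that cover counting error only. Points with under 10 UMIs in all or none in a group are left out. Hes1 lies between 1.59 and 2.06 in 5 populations and at 0.816 in luminal DLP RFP- cells, and the interval of Jag1 lies above 1 in luminal VP RFP+ and basal AP RFP+ cells. That of Notch1 lies above 1 in luminal VP RFP+ and luminal AP RFP- cells, and that of Jag2 below 1 in basal VP RFP+ cells.

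In the explants, 4110 of 5198 cells were kept as epithelial, after removal of 495 cells with mesonephric markers (Pax2, Pax8, Lhx1, Hoxb7), 343 with uroplakins or Krt20, 149 with fibroblast genes and 98 with few epithelial markers. Days 0, 1, 3 and 6 held 360, 557, 1044 and 2149 of them, at median depths of 13346 to 16114 UMIs. Each day is a single pool, so that day and pool cannot be told apart and no test was made. The adult division into basal and luminal cells was not applied to them.

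Notch1 was higher on each later day, with 37.5, 44.2, 58.3 and 84.5 CPM on days 0, 1, 3 and 6, a ratio of day 6 to day 0 of 2.25 (95% interval 1.98 to 2.56). At an equal depth of 5000 UMIs it was detected in 12.5%, 17.9%, 24.7% and 29.6% of the 359, 548, 1031 and 2134 cells deep enough, and without thinning in 38.1%, 41.8%, 48.9% and 56.4%. Notch3 took the opposite course, with 12.5, 7.63, 5.46 and 4.24 CPM (ratio 0.340, 0.258 to 0.451). Notch2 measured 14.3, 13.5, 7.57 and 8.42 (ratio 0.588, 0.466 to 0.747), with most of its difference between days 1 and 3 (ratio 0.558, 0.438 to 0.713).

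Among the ligands, Jag2 measured 29.1, 37.4, 40.1 and 53.1 CPM on days 0, 1, 3 and 6 (ratio of day 6 to day 0 1.83, 1.58 to 2.12, and 2.12 when TMM-scaled). Dll1 was nearly absent at first, with 6 UMIs on each of days 0 and 1 (0.860 and 0.602 CPM), and reached 2.16 on day 3 and 3.83 on day 6 (ratio 4.46, 1.99 to 12.4). Jag1 stayed between 8.43 and 9.74 until day 3 and measured 13.9 on day 6 (ratio 1.43, 1.10 to 1.87). These day 6 levels of Dll1 remained below every basal sum of the adult runs.

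The targets followed 3 different courses. Hes1 measured 368 CPM on day 0, 160 on day 1, 200 on day 3 and 358 on day 6, so that days 0 and 6 were close (ratio 0.972, 0.931 to 1.02) with a lower level between them (day 1 to day 0 0.435, 0.408 to 0.463). Hey1 stayed between 7.33 and 9.89 through day 3 and measured 22.6 on day 6 (ratio of day 6 to day 3 2.35, 1.99 to 2.78). Nrarp measured 12.2, 10.0, 16.5 and 13.0, with its highest level on day 3.

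Between days 0 and 6, Notch1, Dll1 and Hey1 were at least 2-fold higher and Notch3 at least 2-fold lower, beside 9.29% of all genes higher and 11% lower. Jag2 joined them when TMM-scaled. Over all EPCAM+ cells of each day Notch1 (ratio 1.95) and Hey1 (1.80) were under 2-fold and Jag2 (2.79) was past it, and with cells thinned Notch3 (0.516) was not past it. The median ratio over all genes was 0.886. Of 39 further pathway genes with at least 10 UMIs, Dlk1, Dner, Hes7 and Heyl were past 2-fold and higher on day 6, and Dll3 and Hes2 lower.

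**Figure D3:**
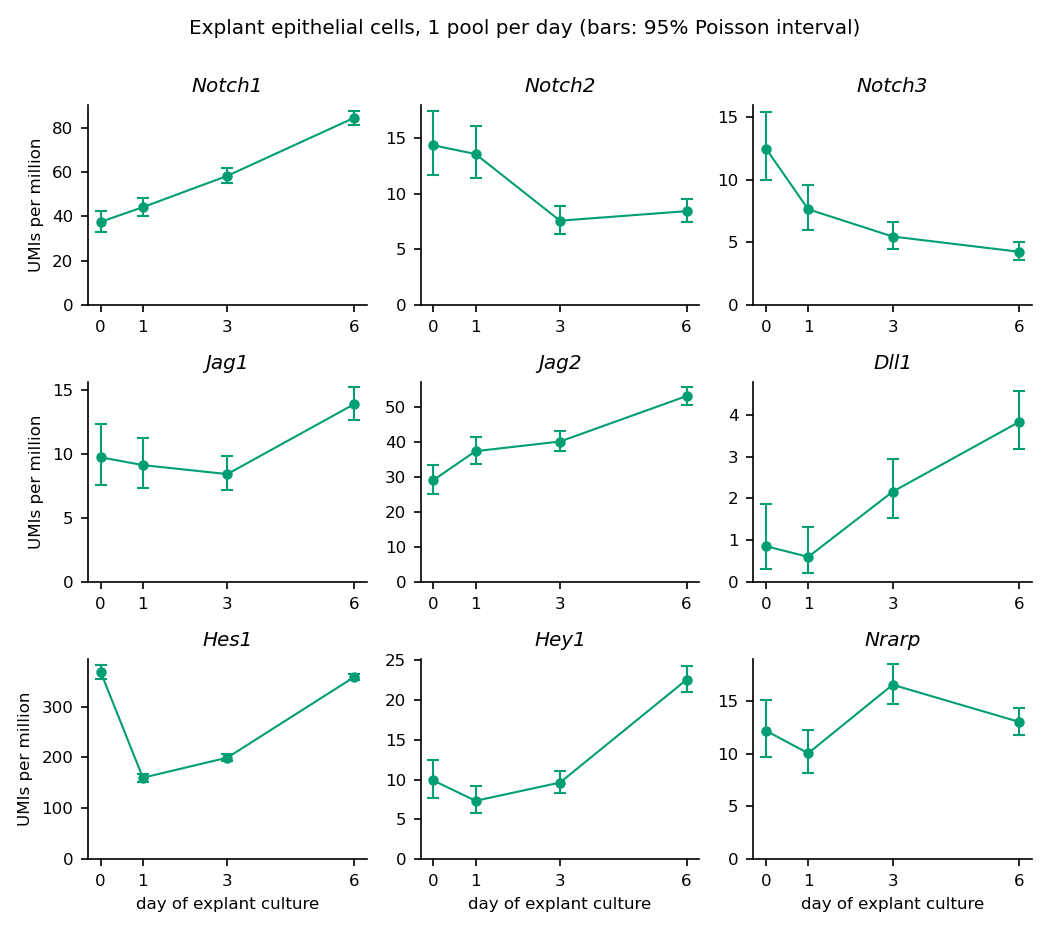
CPM (vertical axes, from 0) of the 9 genes in explant epithelial cells by day of culture (horizontal axis, days), 1 pool per day, with 95% Poisson intervals that cover counting error only. Notch1 and Jag2 climb across all 4 days, Notch3 declines, Hey1 stands higher on day 6 only, and Hes1 has its lowest level on day 1.

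Within day 6, the genes were divided unequally over cells with different keratin levels. Cells were ordered by the Krt5, Krt14 and Trp63 index and cut into a lower, a middle and an upper range (limits 11.0 and 34.0 per 10000, set over days 3 and 6 at equal numbers of cells), and 74 cells with Krt4 or Psca were then set apart. This is a range of levels and not a set of cell types, and it was chosen after the data were seen. Hey1 measured 37.3 CPM (95% Poisson interval 33.8 to 41.1) in the lower range, 21.5 in the middle and 7.90 (6.23 to 9.87) in the upper range. Dll1 ran the other way, with 1.34, 1.93 and 8.92 (7.15 to 11.0) from the lower to the upper range, as did Jag2, with 43.5, 54.0 and 66.5. Notch1 was more even, at 87.7, 77.9 and 86.7. On day 3 the same order held for Hey1 (12.6, 11.1 and 4.14) and Dll1 (0.268, 1.52 and 7.18).

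The 74 cells with Krt4 or Psca on day 6 held 32.9 CPM of Nrarp (95% Poisson interval 22.9 to 45.8), 16.0 of Notch3 (9.32 to 25.6) and 23.5 of Notch2 (15.2 to 34.7), above each of the 3 index ranges in all 3 genes. Jag2 measured 22.6 in them (14.5 to 33.6), below each range. Cells with uroplakins or Krt20 held Notch3 at 22.3, 14.6, 26.3 and 15.1 CPM on days 0, 1, 3 and 6, above the remaining epithelial cells on every day. In cells with mesonephric markers Jag2 measured 6.48, 8.80, 28.0 and 67.2 over the same days.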

How the data were processed

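The authors deposited counts of UMIs per gene and cell, made with Cell Ranger 3.1.0 (mm10), and sample barcode counts from which cells were assigned here with the thresholds in the study's notes, cells with more than 1 barcode being dropped as doublets. Seurat 3.1.5 is named in the submitters' processing notes. Adult cells were kept with over 750 and under 7500 detected genes and under 10% mitochondrial UMIs. The study words the upper limit as UMIs, and that reading was an alternative. Explant cells needed over 1000 genes and under 7.5% mitochondrial UMIs. Library depths were 35051876, 86381807, 40087244 and 121090404 UMIs for runs 1 to 3 and the explants. Runs 1 and 2 and the other libraries were read on different sequencers.

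UMIs were summed per run and population of at least 10 cells, and sums of the 3 runs were compared with edgeR 4.0.16 (quasi-likelihood, TMM scaling, filterByExpr, R 4.3.3), with Benjamini-Hochberg adjustment over all genes at a threshold of 0.05. DESeq2 1.42.0 was an alternative. The p-values measure spread between runs, each a pool of mice. Single pools were compared as ratios with exact conditional 95% intervals, called past 2-fold with at least 10 UMIs. The fit was checked on simulated counts, where most 2-fold changes were not recovered and some unchanged genes were called. A gene that did not pass can therefore still differ, and a single call can be false.

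Members past the threshold were named in every comparison, but not every other member is given a value in each. Members, marker lists and the 45 pathway genes were chosen with earlier results of these data known. One gene counted in the pathway list is not reported by name here. Krt15 was taken out of the basal index after marker levels, not Notch levels, had been seen, since luminal cells with Krt4 carried it, and the index with Krt15 was an added alternative. Sums of a run share their mice and library, which pairs them: their deviations from group means correlated at 0.37 to 0.65 for classes, 0.05 to 0.69 for luminal and 0.29 to 0.76 for basal populations.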

Additional observations from a re-analysis of the deposited data

How the results depend on the processing

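Of 427 values of single genes under alternatives, 368 kept their direction and side of the threshold, 31 were no longer past it, 7 became so and 21 changed sign, all among values past the threshold under neither setting. With the second basal list the log2 fold changes were -0.011 (Jag2) and -0.50 (Dll1) for AP RFP+ against RFP-, 0.77 (Jag2) and 1.24 (Nrarp) for RFP- AP against VP, 0.42 (Jag2) and 0.43 (Dll1) for RFP- AP against DLP and 0.42 (Dll1) for RFP+ AP against VP. With DESeq2 Jag2 was 0.043 for RFP- AP against VP. For basal AP against VP, Notch1 was 0.0062 with no filter, 0.032 without cells near the basal limit and 0.028 with Krt15, Jag1 was 0.059 thinned and Jag2 0.37 under 7500 UMIs. With a run left out, Hey1 ranged from -0.21 to 0.31 (basal against luminal), Notch2 from -1.34 to 0.37 (RFP- AP against VP), Nrarp from -0.46 to 3.79 (RFP- AP against DLP), and for basal AP against VP Notch1 from -0.25 to 0.10, Hes1 from -0.23 to 0.19 and Nrarp from -0.011 to 0.61. Of the 9 genes, 6 passed between basal and luminal cells, against 8 with the run as a replicate block, 3 with cells thinned to 3000 UMIs, 3 with cells under 7500 UMIs and 4 to 6 with a run left out. Between luminal AP RFP+ and RFP- cells 5 passed, against 1 thinned, 0 under 7500 UMIs and 2 to 4 with a run left out. For luminal RFP- AP against VP the count was 1, against 2 with the block, 0 with Krt15 in the index, 0 thinned, 0 without the 6% of cells with most UMIs and 0 with any run left out. For luminal RFP- AP against DLP it was 0, against 1 with Krt15. For luminal RFP+ AP against VP it was 3, against 1 with Krt15, 1 thinned, 1 without the 6% and 1 to 3 with a run left out. Castrated against intact, the number past 2-fold in luminal AP RFP+ cells was 1, against 0 thinned and 0 under 7500 UMIs. In luminal AP RFP- cells it was 2, against 4 with the second basal list, 1 thinned, 0 under 7500 UMIs and 1 with Krt15. In luminal VP RFP+ cells it was 5, against 1 TMM-scaled and 2 thinned. In basal AP RFP+ cells it was 0, against 2 under 7500 UMIs, and in basal VP RFP+ cells 0, against 1 TMM-scaled, 1 without cells near the basal limit, 2 thinned and 1 under 7500 UMIs. For explant day 6 against day 0 it was 4, against 5 TMM-scaled, 3 over all EPCAM+ cells and 3 thinned. The cause of these differences was not tested, but thinning and the 7500 limit leave fewer UMIs and cells. The limit left too few cells for luminal DLP RFP- and VP RFP+ castration and for both luminal AP against VP comparisons. Counts of all genes called higher and lower, where either moved by over 1.5 times, were as follows. Between basal and luminal cells they were 2652 and 2514, against 1160 and 1085 without run 2, 1288 and 1088 without run 3, 1354 and 1441 thinned and 647 and 645 under 7500 UMIs. For luminal AP RFP+ against RFP- they were 1329 and 1125, against 460 and 349 without run 2, 870 and 688 without run 3, 1824 and 1690 with the block, 491 and 423 thinned and 84 and 66 under 7500 UMIs. For RFP- AP against VP they were 797 and 751, against 280 lower calls and fewer higher than lower without run 2, 353 and 333 without run 3, 105 and 93 thinned and 413 and 503 without the 6%. For RFP- AP against DLP they were 50 and 60, against 64 and 99 with DESeq2, 61 and 103 with Krt15, 97 and 198 with no filter, 144 and 215 with the block, 27 and 34, 4 and 0, and 3 and 2 without runs 1, 2 and 3, 30 and 23 with the second list, 5 and 6 thinned and 0 and 0 under 7500 UMIs. For RFP+ AP against VP they were 1534 and 1152, against 643 and 558 without run 2, 809 and 584 without run 3, 2164 and 1755 with the block, 330 and 286 thinned and 968 and 818 without the 6%. For basal AP against VP they were 10 and 33, against 24 and 68 with DESeq2, 154 and 103 with no filter, 217 and 209 with the block, 0 and 0 without run 2, 1 and 0 without run 3, 7 and 21 with the second list, 0 and 0 thinned and 0 and 1 under 7500 UMIs. The block changed no call of the 9 genes beyond those given with the results. Notch3, Hey1, Nrarp and luminal ligand levels rest on few UMIs, which limits their precision.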
